A study of Homo sapiens with 8 samples.

Results

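Of 223459 genomic loci captured by at least 1 of 3 RNA oligos, 7090 were captured by both oligos of the long noncoding RNA MEG3, TFR1 and TFR2, and not by the oligo of GATA6-AS, which is 3.17% of all loci. They were chosen by the presence of a captured region in the authors' lists. To find them, the captured regions of the 3 oligos were merged wherever they shared at least 1 bp. A merged locus was kept where it held a region of MEG3 TFR1 and a region of MEG3 TFR2 but none of GATA6-AS TFR1. The other pairs of oligos had more loci: 10429, 4.67%, for MEG3 TFR1 with GATA6-AS TFR1 only, and 11972, 5.36%, for MEG3 TFR2 with GATA6-AS TFR1 only. Each captured region carries a positive log2 ratio given by the authors. The DNA was RNA-free genomic DNA from H1, an established line of human embryonic stem (ES) cells, sheared by sonication to 200 to 300 bp. Biotinylated RNA oligos, 20 pmol of each for 6 to 7 µg of DNA, were left with it for 1 h at 37 °C, and DNA was pulled down on streptavidin beads. The 4 groups were a control to which no oligo was added, GATA6-AS TFR1, and the MEG3 oligos TFR1 and TFR2. They had 2 libraries each, prepared from independent experiments. The DNA was free of chromatin and the RNAs were short synthetic oligos, so the regions describe binding in a test tube and not in a living cell.

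MEG3 is a long noncoding RNA made from the maternal copy of the DLK1-DIO3 domain, which is imprinted. GATA6-AS is transcribed antisense to GATA6, which encodes a transcription factor of endoderm and heart. Such RNAs can bind double-stranded DNA directly: the RNA lies in the major groove and contacts the purine-rich strand, which makes a triple helix. A triplex-forming region (TFR) is the stretch of an RNA that can do this, and long unbroken runs of purines (A or G), or of pyrimidines (C or T) on the opposite strand, are the DNA sequences known to accept it.

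The loci were chosen from the same lists that give the ratios, so the ratios are a description with no test. Each region has a single log2 ratio over the libraries of its group. The spread between libraries and the sequencing depth are therefore unknown, and no value here has a replicate error. The comparisons of the oligos share the no-oligo libraries. Intervals of shares are 95% Wilson intervals, and cover counting error only.

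Promoter windows show the DNA most directly. A window runs from 250 bases before to 50 bases after a gene's start in RefSeq (GRCh38.p14), and 155 of 35116 windows, or 0.441%, overlapped one of the 7090 loci. The 155 windows belong to 143 genes, and 99 of the windows are of protein-coding genes. Only 137 loci lay on a window, 2.01% (1.70% to 2.37%) of the 6815 loci for which windows were available. That share was 2.71% for all merged loci, and ran from 0.877% for MEG3 TFR2 alone to 6.73% for all 3 oligos. Sequence outside the windows was not examined, so the shares of runs and motifs describe the windows and not the 7090 loci. Of the 155 windows, 56 held an unbroken purine or pyrimidine run of at least 15 bases, which is 36.1% (interval 29.0% to 43.9%). The same share was 19.9% of all windows and 28.2% of the windows on any captured locus. The windows with the longest runs are printed here in lower case with the longest run in capitals, 5′ to 3′ on the strand of the gene, because they show what such a run looks like and where it lies against the captured DNA.
FBXL19: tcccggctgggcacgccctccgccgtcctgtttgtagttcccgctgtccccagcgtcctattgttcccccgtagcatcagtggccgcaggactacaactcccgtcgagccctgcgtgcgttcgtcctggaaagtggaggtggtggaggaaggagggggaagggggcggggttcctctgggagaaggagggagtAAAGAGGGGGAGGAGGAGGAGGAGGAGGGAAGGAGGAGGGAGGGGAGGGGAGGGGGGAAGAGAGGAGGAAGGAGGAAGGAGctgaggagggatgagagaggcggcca
TFAP2A: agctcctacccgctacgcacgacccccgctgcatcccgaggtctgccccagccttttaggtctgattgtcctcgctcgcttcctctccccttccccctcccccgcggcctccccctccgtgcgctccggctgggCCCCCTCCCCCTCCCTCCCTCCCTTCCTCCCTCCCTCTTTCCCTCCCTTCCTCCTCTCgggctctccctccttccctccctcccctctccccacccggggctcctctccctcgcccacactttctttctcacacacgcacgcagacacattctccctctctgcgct
OR10H5: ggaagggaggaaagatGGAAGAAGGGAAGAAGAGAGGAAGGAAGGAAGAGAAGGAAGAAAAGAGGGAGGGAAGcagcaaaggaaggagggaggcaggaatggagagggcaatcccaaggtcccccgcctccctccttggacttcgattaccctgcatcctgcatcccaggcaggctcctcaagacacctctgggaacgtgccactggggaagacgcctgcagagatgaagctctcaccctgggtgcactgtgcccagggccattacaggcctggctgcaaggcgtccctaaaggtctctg
PRRX1: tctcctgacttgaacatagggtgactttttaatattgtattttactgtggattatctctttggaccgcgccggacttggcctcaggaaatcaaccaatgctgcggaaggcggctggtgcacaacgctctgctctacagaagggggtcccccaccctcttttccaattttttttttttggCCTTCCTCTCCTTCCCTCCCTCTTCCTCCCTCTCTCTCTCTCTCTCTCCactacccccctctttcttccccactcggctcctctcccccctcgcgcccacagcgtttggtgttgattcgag
IGF2BP3: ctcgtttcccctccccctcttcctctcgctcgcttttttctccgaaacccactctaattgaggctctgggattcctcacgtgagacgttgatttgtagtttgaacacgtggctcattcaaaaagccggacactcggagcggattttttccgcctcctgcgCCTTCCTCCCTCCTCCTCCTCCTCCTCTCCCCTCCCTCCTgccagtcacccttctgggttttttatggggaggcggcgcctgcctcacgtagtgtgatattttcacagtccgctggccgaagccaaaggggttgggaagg
TMEM94: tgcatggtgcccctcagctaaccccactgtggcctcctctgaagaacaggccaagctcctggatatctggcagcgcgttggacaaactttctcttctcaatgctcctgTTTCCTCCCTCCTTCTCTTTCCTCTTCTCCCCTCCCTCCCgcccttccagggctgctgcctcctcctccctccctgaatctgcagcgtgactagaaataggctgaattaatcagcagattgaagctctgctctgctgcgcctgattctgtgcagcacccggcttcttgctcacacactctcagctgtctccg
The run of FBXL19, which encodes a CpG-binding F-box protein, is 81 purines long, and the window is chr16:30923322-30923621 on the plus strand. It lies beside the captured DNA, not in it: the locus, chr16:30923051-30923500, ends before the run starts at 30923515. TFAP2A encodes a transcription factor of the neural crest, and its window, chr6:10412342-10412641 on the minus strand, holds 58 pyrimidines that likewise lie outside the locus, chr6:10411951-10412400. The same was seen at PRRX1, a homeobox gene of mesenchyme, where 49 pyrimidines in chr1:170663881-170664180 on the plus strand lie past the end of chr1:170663101-170664000. In the olfactory receptor gene OR10H5, 33 of 57 purines in chr19:15787411-15787710 (plus strand) fell in the locus, chr19:15787451-15788250. The 40 pyrimidines of IGF2BP3, which encodes an RNA-binding protein, were wholly inside: the window is chr7:23470442-23470741 on the minus strand and the locus chr7:23470351-23470850. So were the 40 pyrimidines of TMEM94 in chr17:75476287-75476586 (plus strand), with the locus chr17:75475801-75476800.

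The 6 windows with the longest runs had mostly modest ratios. MEG3 TFR1 captured the FBXL19 locus 2.30-fold and MEG3 TFR2 captured it 2.11-fold. The OR10H5 locus was at 3.02-fold and 2.62-fold, IGF2BP3 at 2.71-fold and 2.27-fold, and TMEM94 at 2.42-fold and 2.24-fold, for TFR1 and TFR2 in that order. PRRX1 was at 3.96-fold for TFR1 and 1.99-fold for TFR2. The TFAP2A locus was the exception, at 6.86-fold and 12.4-fold. Over all windows, the median of the lower of the 2 log2 ratios was 1.18 for the 56 with a run of at least 15 bases and 1.19 for the others.

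The windows at the loci with the highest ratios carried short as well as long runs. They were those of TBX18, TFAP2A, printed above, its antisense RNA gene TFAP2A-AS1, and UBE2Z, and are shown because capture there was strongest.
TBX18: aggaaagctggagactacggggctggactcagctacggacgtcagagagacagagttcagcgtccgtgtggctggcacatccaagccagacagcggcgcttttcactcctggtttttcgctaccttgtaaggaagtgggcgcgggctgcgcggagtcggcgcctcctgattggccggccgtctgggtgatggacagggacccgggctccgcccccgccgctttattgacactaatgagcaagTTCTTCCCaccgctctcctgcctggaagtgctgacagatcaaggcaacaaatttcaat
TFAP2A-AS1: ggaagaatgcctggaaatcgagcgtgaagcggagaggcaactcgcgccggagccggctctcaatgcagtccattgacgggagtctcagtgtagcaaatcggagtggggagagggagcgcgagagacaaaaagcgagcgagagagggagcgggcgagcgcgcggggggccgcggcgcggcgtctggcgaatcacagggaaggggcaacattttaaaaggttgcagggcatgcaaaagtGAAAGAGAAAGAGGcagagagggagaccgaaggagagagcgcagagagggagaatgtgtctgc
UBE2Z: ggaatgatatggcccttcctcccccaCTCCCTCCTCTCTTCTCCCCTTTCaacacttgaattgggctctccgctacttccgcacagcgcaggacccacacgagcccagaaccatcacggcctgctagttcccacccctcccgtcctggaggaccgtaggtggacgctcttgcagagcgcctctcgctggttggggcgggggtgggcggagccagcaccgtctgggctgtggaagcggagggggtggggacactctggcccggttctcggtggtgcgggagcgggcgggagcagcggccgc
TBX18 encodes a T-box transcription factor of heart and kidney development, and its window, chr6:84764549-84764848 on the minus strand, had a longest run of 8 bases. Capture of its locus, chr6:84764401-84764650, was 9.14-fold for MEG3 TFR1 and 10.0-fold for MEG3 TFR2. The window of TFAP2A-AS1, chr6:10412068-10412367 on the plus strand, lay wholly in the locus it shares with TFAP2A, and its longest run was 14 purines. UBE2Z encodes a ubiquitin-conjugating enzyme. Its window, chr17:48908157-48908456 on the plus strand, held 24 pyrimidines inside the locus chr17:48908151-48908350, which was captured 5.25-fold by TFR1 and 6.27-fold by TFR2.

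Among the 56 windows with a run of at least 15 bases, the longest run lay wholly inside the locus in 39, partly in 2 and outside in 15. It was a purine run on the gene's strand in 31 and a pyrimidine run in 25. Among all 6989 windows with such a run, it was a purine run in 49.1%. Some of the 56 windows overlap and hold the same run, as at SLC39A8. The share of windows with a run of at least 15 bases was also taken for loci of other sets, with no test. It was 35.7% (32.5% to 39.1%) of 814 windows for MEG3 TFR1 with GATA6-AS TFR1, 28.1% (24.2% to 32.4%) of 462 for MEG3 TFR2 with GATA6-AS TFR1, and 35.7% (31.6% to 40.0%) of 493 for all 3 oligos. It was 34.5% (31.8% to 37.2%) of 1183 windows for MEG3 TFR1 alone, and 21.5% (17.9% to 25.6%) of 437 for MEG3 TFR2 alone. For GATA6-AS TFR1 alone it was 24.0% (22.6% to 25.5%) of 3389, and for any captured locus 28.2% (27.1% to 29.3%) of 6779. The share at loci of both MEG3 oligos thus lay close to those of all other sets with a MEG3 TFR1 region, with overlapping intervals. Its interval also overlapped those of MEG3 TFR2 with GATA6-AS TFR1 and, narrowly, of any captured locus. It lay above those of MEG3 TFR2 alone and GATA6-AS TFR1 alone. Windows on regions from the control lists, where the ratio is negative, were fewer. They had runs in 21.3% (13.6% to 31.9%) of 75 for MEG3 TFR1 and 13.5% (7.51% to 23.1%) of 74 for MEG3 TFR2. For GATA6-AS TFR1 it was 15.1% (10.9% to 20.5%) of 212. The interval of the MEG3 TFR1 control regions overlapped that of the loci of both MEG3 oligos. The median GC content was 55.7% in the 155 windows and 58.7% in all windows.

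**Figure D1:**
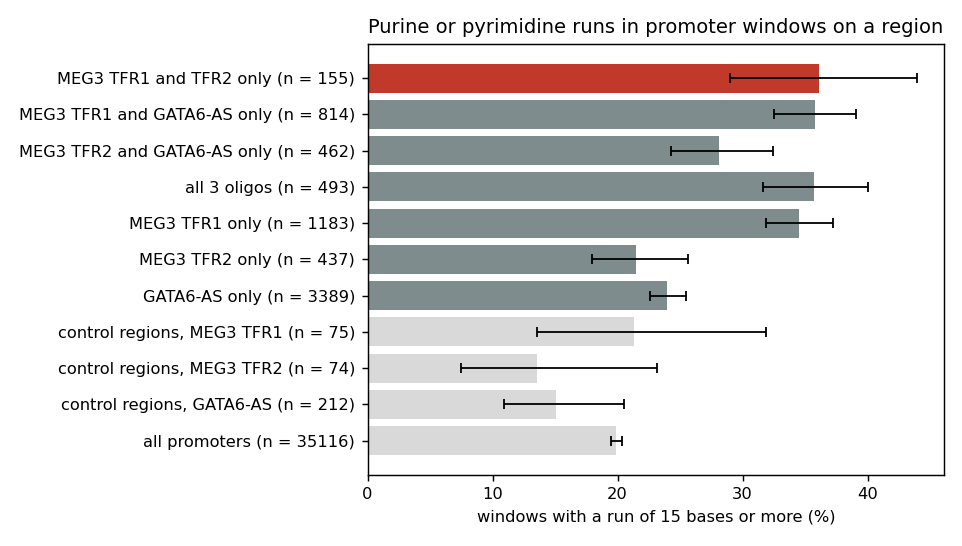
Share of promoter windows (%) with a purine or pyrimidine run of at least 15 bases, for windows that overlap loci of each set of oligos, control regions, and all windows; bars are shares and lines 95% Wilson intervals. The windows on loci of both MEG3 oligos only stand at 36.1%, close to the 34.5% to 35.7% of the other sets with a MEG3 TFR1 region. All windows stand at 19.9%.

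Short repeated motifs were counted in the same windows on both strands. GAGAGAG or its complement CTCTCTC was in 28 of 155 windows, 18.1% (12.8% to 24.9%), against 9.50% of all windows. GGAGGAG or CTCCTCC was in 53 windows, 34.2% (27.2% to 42.0%), against 20.9%. GAAGAAG or CTTCTTC was in 14 windows, 9.03% against 6.50%, and a run of 7 G or 7 C was in 8 windows, 5.16% against 5.1%. CACACAC or GTGTGTG, which mixes purines and pyrimidines and was counted for comparison, was in 13 windows, 8.39% against 6.71%. The shares of GAGAGAG and GGAGGAG lay within the range of the other sets. In that order they were 20.5% and 40.4% for all 3 oligos, and 20.5% and 29.8% for MEG3 TFR1 alone. They were 12.1% and 35.9% for MEG3 TFR2 with GATA6-AS TFR1, and 15.6% and 33.4% for MEG3 TFR1 with GATA6-AS TFR1. MEG3 TFR2 alone had 12.4% and 22.4%. GATA6-AS TFR1 alone had 9.71% and 27.6%, the first near the 9.50% of all windows. A window can hold several of these motifs.

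The ratios of the MEG3 oligos covered like ranges over the 7090 loci. For MEG3 TFR1 the lowest, median and highest log2 ratios were 0.43, 1.39 and 4.56, and for MEG3 TFR2 they were 0.46, 1.42 and 4.94. The medians of all captured regions were 1.41 for TFR1 and 1.44 for TFR2, so the medians of the shared loci were no higher than those of all regions. The median difference, TFR1 minus TFR2, was -0.03 on the log2 scale, with an interquartile range from -0.26 to 0.21. At 5706 loci, 80.5%, the pair of values lay within 0.5 of each other; each value had to come from a captured region and the comparisons share the no-oligo libraries, so this closeness cannot be read as agreement of the oligos. TFR1 had the higher value at 3306 loci, 46.6% (45.5% to 47.8%), TFR2 at 3777, 53.3%, and the values were equal at 7.

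A log2 ratio of 2, or 4-fold, was reached by 930 loci for MEG3 TFR1, 13.1% against 14.4% of all its captured regions. For MEG3 TFR2 it was reached by 874 loci, 12.3% against 14.1% of its regions. Both oligos reached it at 443 loci, 6.25%, and 24 loci had both log2 ratios at 3 or more. The shares for each oligo taken alone are near their backgrounds.

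**Figure D2:**
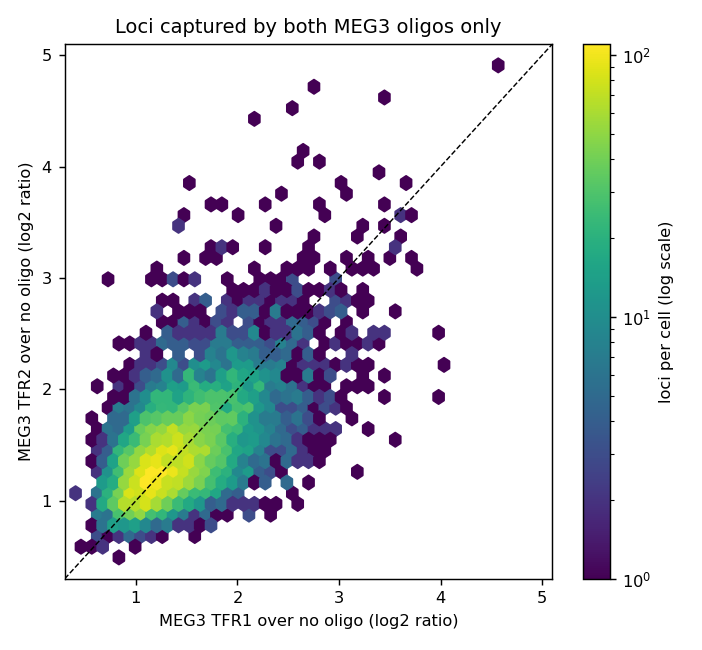
Log2 ratio of MEG3 TFR1 (x axis) and of MEG3 TFR2 (y axis) at the 7090 loci captured by both oligos and not by GATA6-AS TFR1; the colour of a cell gives the number of loci on a log scale and the dashed line marks equal values. Most loci lie near the diagonal, with 80.5% within 0.5 of it, and few reach 3 on both axes.

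The 5 loci with the highest lower ratio lay in genes and between them. The highest, chr2:28389451-28389750 in the antisense RNA gene FOSL2-AS1, was at 23.6-fold for MEG3 TFR1 and 30.75-fold for MEG3 TFR2. Next was chr8:9975351-9975650, between genes, at 12.6-fold and 15-fold. The locus chr15:68726201-68726900 lies in CORO2B, which encodes an actin-binding coronin, and was at 12-fold and 11.9-fold. KIAA1671 held chr22:25067301-25067800, at 12.5-fold and 11.8-fold. The fifth, chr14:95928351-95928750, lies between genes 2.78 kb from TUNAR and was at 13.3-fold and 11.75-fold.

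A few loci were unequal: 190, or 2.68%, had log2 ratios more than 1 apart, 84 in favour of MEG3 TFR1 and 106 in favour of MEG3 TFR2. The examples given here were chosen after their values were seen. A locus 1.23 kb from ACE, which encodes angiotensin-converting enzyme, was at 2.82-fold for TFR1 and 14.1-fold for TFR2. A locus 4.11 kb from GTF2IRD1 was at 4.59-fold and 21.9-fold. In the other direction, TNFRSF13B, which encodes a B cell receptor of the TNF receptor family, had a locus at 16.1-fold for TFR1 and 3.74-fold for TFR2. In NFATC1, a transcription factor gene of T cells and heart valves, the values were 12.1-fold and 2.88-fold.

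The regions of the pair of oligos usually covered the same stretch of DNA, although they rarely had the same ends. A locus had a median width of 600 bp (150 to 4800), against 350 bp for loci captured by MEG3 TFR1 alone and 300 bp for MEG3 TFR2 alone. A shared locus joins at least 2 regions that overlap in part, so greater width follows from the merging. At 6897 loci, 97.3%, each oligo had 1 region. The regions shared a median of 250 bp, which was 83.3% of the shorter region. At 2791 loci, 39.4%, the shorter region lay wholly inside the longer, and at 123 the start and end were the same. The midpoints were a median of 150 bp apart. MEG3 TFR1 had the wider region at 4188 loci, 59.1%, and MEG3 TFR2 at 2038, 28.7%.

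Narrow loci had higher ratios than wide ones. The median log2 ratios were 1.63 for TFR1 and 1.66 for TFR2 at the 1317 loci under 450 bp. They were 1.25 and 1.30 at the 2031 loci of 750 bp or more. Across loci, Spearman's rho of width and the lower log2 ratio was -0.39, a description over loci that share libraries. Of the 5 widest loci, chr19:23465351-23470150, 4800 bp between genes, was at 6.13-fold for TFR1 and 1.92-fold for TFR2, and chr20:30501151-30504800, 3650 bp between genes, at 5.35-fold and 3.68-fold. The third widest, chr1:1594701-1597150 (2450 bp), is at FNDC10 and is described with the gene edges. Of 2400 bp each were chr16:70156551-70158950 in PDPR, at 1.46-fold and 1.97-fold, and chr17:6676501-6678900 between genes, at 1.93-fold and 1.86-fold.

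Loci at the limit of the rule had medians slightly above those of all 7090. The smallest overlap was 50 bp, found at 526 loci with median log2 ratios of 1.54 for TFR1 and 1.61 for TFR2. Just outside were 355 pairs of regions that touched without sharing a base, with medians of 1.52 and 1.54. At 89 loci a GATA6-AS TFR1 region touched the locus without overlapping it, and the medians there were 1.44 for each oligo.

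Absence of GATA6-AS TFR1 from a locus did not mean absence from its neighbourhood. The nearest GATA6-AS TFR1 captured region was a median of 3.8 kb away, and it was within 1 kb at 1750 loci, 24.7% (23.7% to 25.7%). The same share was 18.1% (17.9% to 18.4%) for loci of MEG3 TFR1 alone and 14.0% (13.7% to 14.3%) for MEG3 TFR2 alone. Another locus of the 7090 was a median of 57.45 kb away, and within 10 kb at 1100 loci, 15.5%.

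The loci were spread over all 22 autosomes. They made up from 2.28% (1.98% to 2.64%) of the loci of chromosome 4, 179 of 7839, to 3.89% (3.48% to 4.34%) on chromosome 15, 299 of 7690. Per Mb, all captured loci numbered 221 on chromosome 19, 171 on chromosome 22 and 41.3 on chromosome 4. Among autosomes the 7090 loci were likewise densest on chromosome 19, at 6.62, and chromosome 22, at 6.09, and thinnest on chromosome 4, at 0.94. None was among the 158 captured loci of the X chromosome, which had only 1.04 captured loci per Mb. A count of 0 there allows a share of up to 1.90% by the limit of 3 counts, and up to 2.37% by the Wilson interval. The latter reaches past the 2.28% of chromosome 4. Of 2807 windows of 1 Mb with any captured locus, 1846 had at least 1 of the 7090 loci, and the fullest was at 156 to 157 Mb of chromosome 1, with 24 among 426 loci.

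Relative to genes, the loci were placed much like all captured loci, except at gene ends. By midpoint, 3636 loci, 51.3%, fell in the body of a protein-coding gene, 768, 10.8%, in a gene of another kind, and 2352, 33.2% (32.1% to 34.3%), between genes. At a gene edge, defined as at most 1 kb from the start or far end of a protein-coding gene, were 334, 4.71% (4.24% to 5.23%). The same shares of all 223459 loci were 50.7% in protein-coding genes, 10.95% in other genes, 31.1% between genes and 7.25% (7.14% to 7.35%) at gene edges. The gene edge held 12.6% (11.9% to 13.2%) of the loci of MEG3 TFR1 with GATA6-AS TFR1, 10.2% (9.66% to 10.7%) of those of MEG3 TFR2 with GATA6-AS TFR1, and 11.98% (11.2% to 12.8%) of those of all 3 oligos. Loci of MEG3 TFR1 alone and of MEG3 TFR2 alone had 4.44% (4.28% to 4.60%) and 3.58% (3.42% to 3.75%) at gene edges, and those of GATA6-AS TFR1 alone 10.6% (10.4% to 10.9%). With this edge of 1 kb, the interval of the MEG3 pair overlapped that of MEG3 TFR1 alone and lay above that of MEG3 TFR2 alone. Loci are no replicates, so these shares were not tested. The log2 ratios differed little by class: median values were 1.38 and 1.40 at gene edges and 1.40 and 1.43 between genes, for TFR1 and TFR2.

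**Figure D3:**
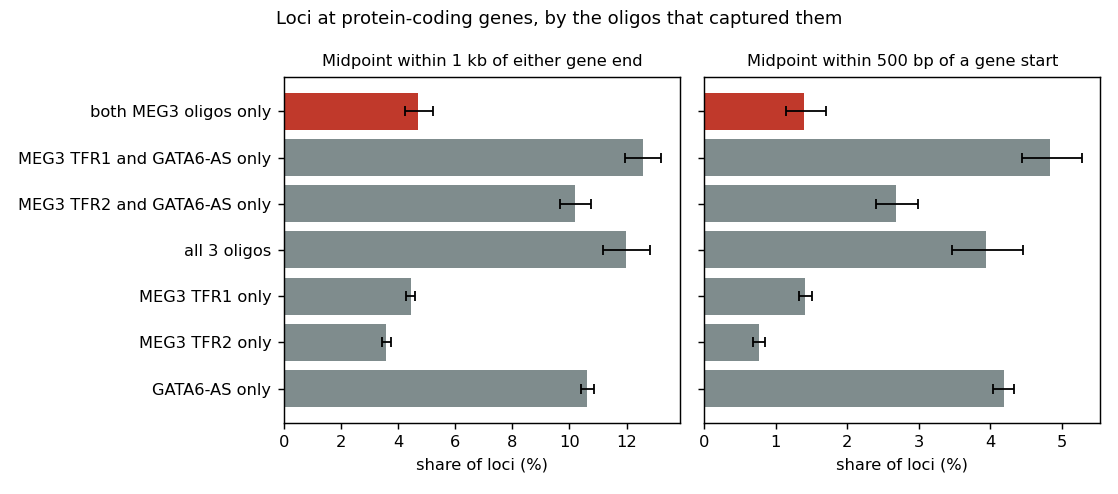
Share of loci (%) for each set of oligos at protein-coding gene edges (left) and within 500 bp of a protein-coding gene start, without chromosome 8 (right); bars are shares and lines 95% Wilson intervals. Loci of both MEG3 oligos only stand at 4.71% and 1.39%, the first below the 10.2% to 12.6% of the sets that also hold a GATA6-AS TFR1 region.

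The position against gene starts was also counted. Leaving out chromosome 8, for which no starts were used, 95 of 6815 loci, 1.39% (1.14% to 1.70%), had a midpoint within 500 bp of a protein-coding gene start. For MEG3 TFR1 with GATA6-AS TFR1 it was 4.84% (4.44% to 5.27%), for MEG3 TFR2 with GATA6-AS TFR1 2.68% (2.40% to 2.99%), and for all 3 oligos 3.93% (3.47% to 4.46%). MEG3 TFR1 alone had 1.41% (1.32% to 1.51%), MEG3 TFR2 alone 0.764% (0.688% to 0.849%) and GATA6-AS TFR1 alone 4.18% (4.04% to 4.33%). At starts, too, the pair stood close to TFR1 alone and above TFR2 alone. The density of loci, as a share per kb, was 1.09% in the 500 bp before a start and 1.70% in the 500 bp after it, and 1.42% between 2 and 5 kb after it. For MEG3 TFR1 with GATA6-AS TFR1 the same 3 stretches held 4.60%, 5.07% and 1.66%. Loci of the MEG3 pair thus had no peak of that height at gene starts.

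**Figure D4:**
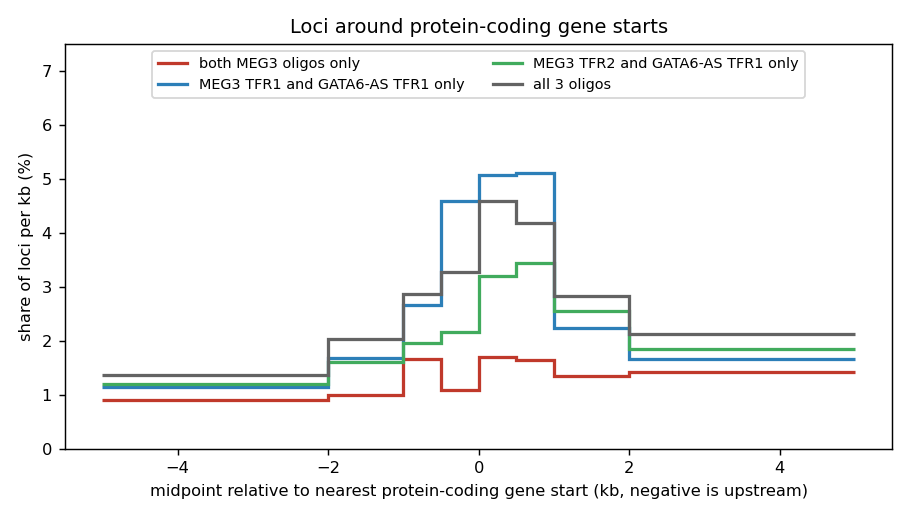
Share of loci per kb (%) by distance of the locus midpoint from the nearest protein-coding gene start (kb, negative is upstream), for 4 sets of loci. The line of both MEG3 oligos only stays between 0.900% and 1.70%, while that of MEG3 TFR1 with GATA6-AS TFR1 reaches 5.11%.

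At least 1 of the 7090 loci lay no more than 1 kb from an end of 480 of 19974 protein-coding genes, 2.40%. A locus of MEG3 TFR1 with GATA6-AS TFR1 did so for 9.17% of genes, of MEG3 TFR2 with GATA6-AS TFR1 for 8.99%, and of all 3 oligos for 6.09%. Of the 480 genes, 207 had the locus at the start and 163 at the far end, and for 110 the strand was not in the table. The median log2 ratios at these genes were 1.39 for MEG3 TFR1 and 1.40 for MEG3 TFR2. A separate GATA6-AS TFR1 region lay at an edge of 311 of the 480, 64.8%, against 46.8% of all protein-coding genes. Hence for most of these genes the GATA6-AS oligo was not absent from the gene ends.

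The 10 genes with the highest lower ratio at an edge were of varied function. CORO2B, described above, led, with its locus inside the gene and 906 bp from its far end. At HSPB2, which encodes a small heat shock protein of muscle, chr11:111913301-111913550 was at 10.8-fold for TFR1 and 10.7-fold for TFR2. TBX18 came next, at its start. The locus beside FNDC10, 862 bp away, was at 8.52-fold and 13.1-fold.

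At the zinc finger gene ZNF28, chr19:52820451-52821200 was captured 7.76-fold by TFR1 and 8.47-fold by TFR2. LTBP4 encodes a protein that binds latent TGF-beta in the matrix, and chr19:40629751-40630250 at its far end was at 6.58-fold and 9.27-fold. At the far end of THAP8, a gene of the THAP zinc finger family, chr19:36035651-36036250 was at 7.00-fold and 6.57-fold. AQP1 encodes a water channel, and chr7:30910551-30911200, which lies 653 bp before its start, was at 7.37-fold and 6.39-fold. The most unequal of the 10 was VWA5B1, where chr1:20291251-20291800 at the start was at 6.00-fold for TFR1 and 16.6-fold for TFR2. Last was YTHDF2, which encodes a reader of methylated adenosine in RNA: chr1:28770751-28771300, 976 bp past the far end, was at 5.43-fold and 6.70-fold. Of the 10, 3 had the locus at the start, 4 at the far end, and 3 lack a strand in the table.

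**Figure D5:**
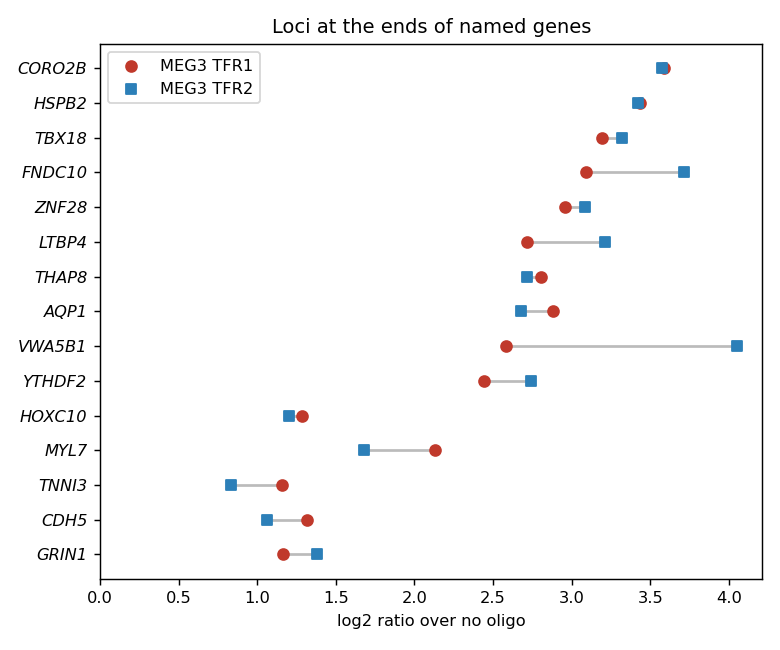
Log2 ratios of MEG3 TFR1 and MEG3 TFR2 at the loci of the genes named for gene edges, the 10 highest and 5 from the gene lists, 1 value per oligo and gene with no replicate error. For most genes the points of the pair of oligos lie close together, and at VWA5B1 they stand farthest apart, at 2.58 and 4.05.

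In 12 gene lists, 0 to 2 genes each had such a locus at an edge. At the background of 2.40%, lists of 24 to 50 genes are too short for these counts to be read as high or low. The HOX genes set position along the body axis, and of 39 only HOXC10 had such a locus, at 2.44-fold for MEG3 TFR1 and 2.30-fold for MEG3 TFR2. Of 46 genes of TGF-beta and BMP signalling, which MEG3 is known to affect, LTBP4 had one at an edge. Cardiac genes had 2 of 24: MYL7, the atrial myosin light chain, at 4.37-fold and 3.20-fold, and TNNI3, cardiac troponin I, at 2.23-fold and 1.78-fold. Among 32 endothelial genes it was CDH5, VE-cadherin, at 2.49-fold and 2.08-fold, and among 30 genes of synaptic adhesion and ion channels GRIN1, the obligatory NMDA receptor subunit, at 2.24-fold and 2.60-fold. None was found at the edges of 26 pluripotency genes, 25 of endoderm and mesoderm, 24 of neuroectoderm, 30 of Polycomb, 28 imprinted, 30 of p53 and 50 of ribosomal proteins. Gene edges are the outer ends of a gene, so starts inside a gene are not counted. Promoter windows at such starts added 2 list genes: BMP4, a BMP ligand gene, where chr14:53952651-53953400 had log2 ratios of 0.95 for TFR1 and 1.05 for TFR2, and the pluripotency gene DPPA4, where chr3:109337301-109337850 covered the whole window and had 1.37 and 1.47.

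Regions of each oligo at the edges of these genes, whether shared or not, varied widely between lists. Over all protein-coding genes 28.2% had a MEG3 TFR1 region, 22.2% a MEG3 TFR2 region and 46.8% a GATA6-AS TFR1 region. The HOX genes were at the top, with 28, 19 and 36 of 39 in that order. Imprinted genes had 4, 7 and 16 of 28, ribosomal protein genes 12, 17 and 28 of 50, endoderm and mesoderm genes 9, 4 and 14 of 25, and neuroectoderm genes 14, 2 and 20 of 24.

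Counting the gene body and its flanks of 5 kb, 12 of 39 HOX genes, 12 of 46 of TGF-beta and BMP signalling, 8 of 30 of p53 and 16 of 30 of synaptic adhesion and ion channels had at least 1 of the loci, against 18.0% of all protein-coding genes. The other lists had 6 of 24 for cardiac, 8 of 32 for endothelial, 4 of 25 for endoderm and mesoderm, 3 of 24 for neuroectoderm, 2 of 26 for pluripotency, 2 of 30 for Polycomb, 3 of 28 for imprinted and 6 of 50 for ribosomal protein genes. Long genes offer more room for a locus in such a count, and 1 locus can count for several genes that lie side by side, as HOX genes do. The genes with most loci, named after their values were seen, were long and neuronal in part: GRIK4, a kainate receptor subunit gene of 477 kb, had 11 among 118 loci, and RBFOX1, a splicing factor gene of 2474 kb, 10 among 170. ARNT2, a bHLH-PAS transcription factor gene of 194 kb, had 9 among 36, or 25.0% of its loci. GRM4, a metabotropic glutamate receptor gene of 137 kb, had 9 among 87. Median log2 ratios were 1.28 and 1.45 in GRIK4, 1.99 and 1.98 in RBFOX1, 1.57 and 1.56 in ARNT2 and 1.54 and 1.43 in GRM4, for TFR1 and TFR2. Of the protein-coding genes, 2155 had 1 locus and 47 had 5 or more.

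None of the loci lay within 5 kb of MEG3, DLK1, GATA6-AS1 or GATA6. The nearest to MEG3 and DLK1 was chr14:100701301-100701500, 124.6 kb and 25.4 kb away, with log2 ratios of 1.95 for TFR1 and 2.10 for TFR2. The nearest to GATA6-AS1 and GATA6 was chr18:22320901-22321550, 151.9 kb and 118.4 kb away, with 2.32 and 0.92. MEG3 itself, within 5 kb, had 8 regions of MEG3 TFR1 and 4 of MEG3 TFR2, and 7 of GATA6-AS TFR1. In the same order, DLK1 had 0, 2 and 12, GATA6-AS1 had 1, 1 and 2, and GATA6 had 3, 0 and 2. No background for stretches of these lengths was counted, so the counts cannot be read as high or low.

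Among noncoding genes, 927 of 18177 long noncoding RNA genes overlapped at least 1 locus, 5.1%, against 14.3% of protein-coding genes. Long genes offer more room in this count too, and gene length was not taken into account. By midpoint, 10.8% of the 7090 loci lay in genes other than protein-coding, against 10.95% of all captured loci. Hairpins of miRNAs were overlapped in 4 cases of 1562: MIR190B, MIR6760, MIR6504 and MIR4436A, named after they were found. Their loci had log2 ratios between 0.67 and 1.67 for MEG3 TFR1 and between 1.02 and 1.30 for MEG3 TFR2. The share overlapped by any captured locus is given for neither long noncoding RNA genes nor hairpins. These counts can therefore not be read as high or low.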

How the data were processed

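Regions of DNA captured by RNA oligos, in 8 libraries of 4 groups, were analysed from 3 captured and 3 control lists. Per the submitters' processing notes, the tools named are BWA 0.7.15-r1140 and FastQC, and the build is hg38. How the regions were called is not given in the sources used here. For each region, the authors deposited 1 log2 ratio over both libraries of a group; that the scale is log2 was read from the values, since 99.8% of 327994 equalled whole-number ratios (denominator up to 400, tolerance 1e-09). Depth and library spread are unknown.

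Regions sharing at least 1 bp were merged with 1-based coordinates. A locus took, for each oligo, its highest region value, shown as a fold where linear. Genes and promoter windows came from RefSeq tables of GRCh38.p14; the promoter table was used without chromosome 8. The run search counted unbroken purines or pyrimidines on either strand. No test was made. The genes named were the 10 with the highest lower value of the 2 oligos at an edge, the 5 highest and the 5 widest loci, up to 4 per gene list, 9 printed promoters, and 4 genes of the oligos' loci. The loci and the 12 gene lists were chosen with earlier results of these data known. The merging and counting were tested on simulated data. Alternatives were stricter regions, wider joining, larger overlap, distance from GATA6-AS TFR1, chromosome 1 left out, wider gene edges and other run lengths. Python 3.11.15, numpy 2.4.6, pandas 2.3.3, scipy 1.17.1 and matplotlib 3.10.9 were used.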

Additional observations from a re-analysis of the deposited data

Results flagged for a closer look

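The control lists hold regions with negative log2 ratios, where the oligo library had less DNA than the no-oligo library. In the report they served only as a reference for runs in promoter windows. Some of the 7090 loci overlapped a control region. A control region of MEG3 TFR1 overlapped 8 loci (0.113%), one of MEG3 TFR2 overlapped 11 (0.155%), and one of GATA6-AS TFR1 overlapped 67 (0.945%, interval 0.745% to 1.20%). In that order, the lists hold 12649, 10944 and 36330 control regions, and a longer list offers more regions to overlap. At those 67 loci the GATA6-AS TFR1 log2 ratios of the control regions ran from -2.18 to -0.38 with a median of -1.12, while the MEG3 medians were 1.08 for TFR1 and 1.07 for TFR2. The share on GATA6-AS TFR1 control regions was 0.580% for loci of MEG3 TFR1 alone, 0.376% for loci of MEG3 TFR2 alone, and 0.824% (0.625% to 1.08%) for loci of all 3 oligos. It was 0.441% for loci of MEG3 TFR1 with GATA6-AS TFR1 and 0.259% for loci of MEG3 TFR2 with GATA6-AS TFR1. Of the loci of GATA6-AS TFR1 alone, 0 of 75319 lay on a control region of the same oligo. Sets that hold a GATA6-AS TFR1 captured region are therefore no like comparison for the 0.945%. Median width at the 67 loci was 850 bp, against 600 bp for all 7090. The comparisons share the no-oligo libraries, and their part in this was not tested.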

How the results depend on the processing

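With only regions at or above the median ratio of their list, the loci numbered 2877 in place of 7090, and MEG3 TFR1 had the higher value at 50.5% of them. The gene edge share fell to 3.61% where no GATA6-AS TFR1 region lay within 1 kb, and was 20.9% (19.9% to 21.8%) with an edge of 5 kb. At 5 kb the share was 17.6% for MEG3 TFR1 alone and 15.8% for MEG3 TFR2 alone, so the pair stood above both. The sets with a GATA6-AS TFR1 region had 29.0% to 38.8%. Genes with a locus numbered 1815 within 5 kb of an end, and 3597 anywhere in the gene or within 5 kb of it. Runs were in 68.4% of windows at 12 bases or more (44.9% of all windows) and in 18.1% at 20 or more (6.03%). Windows wholly inside a locus, chosen after seeing the data, had runs in 49.1% (36.4% to 61.9%) of 55, against 33.2% for any captured locus. For such windows the share was 43.3% (36.5% to 50.3%) for MEG3 TFR1 alone, 40.1% for all 3 oligos and 38.8% for MEG3 TFR1 with GATA6-AS TFR1. It was 27.7% for MEG3 TFR2 with GATA6-AS TFR1, 26.6% for GATA6-AS TFR1 alone and 17.0% for MEG3 TFR2 alone. The causes were not tested, but longer edges and shorter runs admit more by construction. The other alternatives left the locus count between 5396 and 7849, the edge share between 4.36% and 5.14%, and the TFR1-higher share between 46.1% and 47.1%. With touching regions joined, chosen after seeing the data, 7335 loci were found, and with the first window of each gene 36.3%. No paired analysis was possible because each region has 1 value over both libraries of a group, and no library could be left out. Single-value ratios have no error, so small differences between loci cannot be ranked.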
